A study of Mus musculus with 16 samples.

Results

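The receptors of the signalling lymphocytic activation molecule (SLAM) family were followed across stem and progenitor cells of mouse bone marrow with and without the Jak2V617F mutation. The 8 members, taken by gene symbol from 29806 gene rows, were Slamf1 (the CD150 antigen), Cd48, Cd84, Ly9, Slamf6, Slamf7, Slamf8 and Slamf9, and all 8 were found and passed the filter on low counts. RNA was sequenced in 16 libraries, 4 in each of 4 groups: Jak2V617F MPP3, WT MPP3, Jak2V617F HSC and WT HSC. HSC are the haematopoietic stem cells, and MPP3 are myeloid-biased multipotent progenitors, here the Fcgr-negative fraction, Fcgr being the low-affinity IgG receptors that mark later granulocyte-monocyte progenitors. Jak2V617F is the activating change in the kinase JAK2 that occurs in human myeloproliferative neoplasms, and the WT mice were titled as controls of the Jak2 mice. The labels do not state how the allele was introduced, in which cells it was active or whether it was heterozygous, nor the age of the mice or the antibodies of the sort.

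SLAM receptors are cell-surface proteins of the immunoglobulin superfamily on blood cells, and most of them bind a copy of themselves on a neighbouring cell. CD48 differs in build: it is held in the membrane by a lipid anchor and has no signalling tail. It binds CD244, whose gene Cd244a is not among the 8 members followed here, and, in rodents, CD2. Members with tyrosine switch motifs in their tails signal through the small adaptors SAP (Sh2d1a) and EAT-2 (Sh2d1b1, Sh2d1b2). In mouse bone marrow, CD150 on the surface together with the absence of CD48 marks the stem cell, and CD48 appears on the progenitors that follow, so Slamf1 and Cd48 are both readouts here and commonly used sort markers.

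Slamf1 and Cd48 had large opposite differences between the cell types and are neighbouring protein-coding genes on the same strand, so their start regions are shown (RefSeq, GRCm38.p6, plus strand, 250 bases before to 50 bases after each gene's start). The first is chr1:171766882-171767181 and the second is chr1:171681742-171682041. Capitals mark the E-box letters CAGCTG, the only one of 4 searched motifs present in either sequence.

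Slamf1: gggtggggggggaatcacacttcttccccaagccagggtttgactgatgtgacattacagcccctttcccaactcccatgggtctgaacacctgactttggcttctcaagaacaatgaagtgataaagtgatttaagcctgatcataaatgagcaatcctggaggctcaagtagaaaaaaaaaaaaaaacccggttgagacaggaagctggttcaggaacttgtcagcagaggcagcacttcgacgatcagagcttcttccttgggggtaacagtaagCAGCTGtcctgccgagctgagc

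Cd48: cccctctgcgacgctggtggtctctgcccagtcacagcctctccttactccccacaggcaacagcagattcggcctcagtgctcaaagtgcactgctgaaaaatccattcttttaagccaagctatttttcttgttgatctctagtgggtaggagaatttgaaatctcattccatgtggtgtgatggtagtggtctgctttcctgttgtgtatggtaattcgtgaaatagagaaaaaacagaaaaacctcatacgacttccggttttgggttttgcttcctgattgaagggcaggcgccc

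The motifs searched were AGATAA (a form of the GATA-factor letters, on either strand), CAGCTG (an E-box), TTCNNNGAA (STAT-factor letters) and CACGTG (another E-box). The last 3 read the same on both strands, and no matches in the members overlapped. Of the 7 members with an entry in the RefSeq table (Ly9 had none), 4 held CAGCTG, namely Slamf1, Slamf7, Slamf8 and Slamf9, and Slamf8 and Slamf9 also held CACGTG. Of all 32851 promoters of the same length, 16.3% held CAGCTG and 7.15% held CACGTG. No member's window held AGATAA, found in 11.2% of all promoters, or TTCNNNGAA, found in 8.30%. Other forms of the GATA-factor letters, such as the TGATAA in the Slamf1 sequence, were not searched. These are matches of letters in short windows and nothing was measured on binding.

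The libraries held 33108500 to 41230910 estimated counts each and 14439 to 16522 detected genes. Levels are CPM (counts scaled to a common library total with the TMM factors that even out library composition), given for replicates 1 to 4 in that order or as mean ± SD with n = 4 libraries. Log2 fold changes are given ± SE, and each adjusted p is that of the quasi-likelihood test in edgeR, adjusted by Benjamini-Hochberg for the 14179 genes tested, and a gene is called where it is below 0.05. The labels do not say that the replicates came from separate animals, so the p-values measure the spread between these libraries. The cell type labels were borne out by markers. In Jak2V617F MPP3 against Jak2V617F HSC, 7 of 10 HSC markers were called lower and 10 of 10 markers of MPP3 and granulocyte-monocyte progenitors higher, where 8.36% of all genes were called. For WT, 10 of 10 HSC markers were called lower, and 9 of 10 markers of MPP3 and granulocyte-monocyte progenitors higher, in WT MPP3 against WT HSC, where 13.6% of all genes were called. A count per gene carries no trace of a base change, so the genotype labels were not checked.

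In these sorted populations, fewer cells of a type and less RNA per cell cannot be told apart. Cd48 was the dominant SLAM transcript of MPP3 and a minor one of HSC. It stood at 334, 268, 242 and 260 CPM in the Jak2V617F MPP3 libraries, at 194, 216, 163 and 168 CPM in WT MPP3, at 8.67, 4.91, 5.78 and 7.60 CPM in Jak2V617F HSC, and at 3.13, 1.94, 1.74 and 3.20 CPM in WT HSC. The 4 groups followed each other in that order with no overlap between any neighbours. Cd48 was 5.35 ± 0.23 higher on the log2 scale in Jak2V617F MPP3 than in Jak2V617F HSC, a 40.8-fold difference, and 6.21 ± 0.24 higher in WT MPP3 than in WT HSC, a 73.8-fold difference. Since Cd48 is a common sort marker of these cells, no test is given for that difference.

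Slamf1, which encodes the self-binding receptor CD150, had the opposite distribution. It stood at 3.54, 2.71, 1.05 and 2.45 CPM in Jak2V617F MPP3, at 2.72, 2.25, 1.54 and 1.01 CPM in WT MPP3, at 39.5, 33.1, 39.6 and 38.5 CPM in Jak2V617F HSC, and at 36.5, 30.6, 32.0 and 60.3 CPM in WT HSC. Every HSC library lay above every MPP3 library, whereas the genotypes overlapped within each cell type. The log2 difference of MPP3 from HSC was -3.95 ± 0.36 in Jak2V617F and -4.41 ± 0.37 in WT, given without a test for the same reason as for Cd48. Replicate 4 was the highest of the WT HSC libraries.

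**Figure D1:**
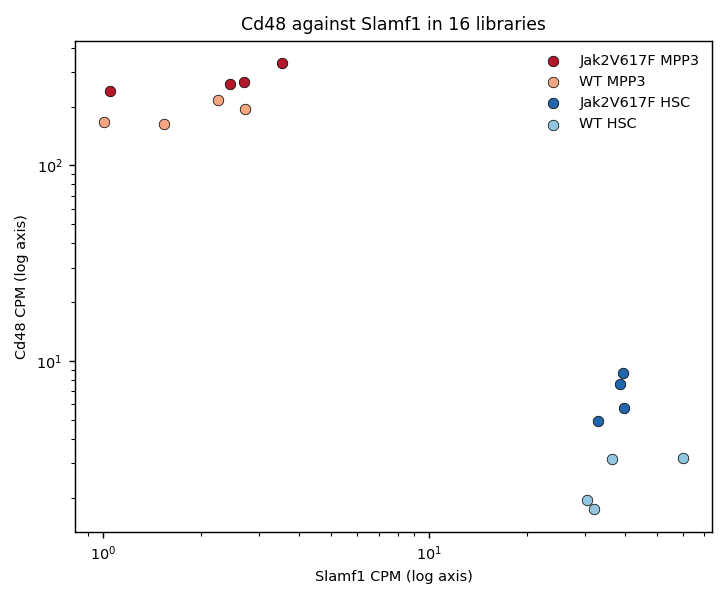
Cd48 against Slamf1 in the 16 libraries, each point a library and both axes in CPM on a log scale. The MPP3 libraries lie at the upper left and the HSC libraries at the lower right; within HSC the 4 Jak2V617F libraries, at 4.91 to 8.67 CPM of Cd48, lie above the 4 WT libraries, at 1.74 to 3.20 CPM.

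Cd84, a self-binding receptor known on platelets, B cells and myeloid cells, was expressed at a similar level in all 4 groups. It averaged 56.5 ± 3.92 CPM in Jak2V617F MPP3, 70.8 ± 18.8 CPM in WT MPP3, 72.4 ± 16.3 CPM in Jak2V617F HSC and 79.1 ± 9.13 CPM in WT HSC. The libraries ran from 45.9 to 91.6 CPM, and every neighbouring pair in the order of means overlapped. The log2 difference of MPP3 from HSC was -0.36 ± 0.18 in Jak2V617F (edgeR adjusted p = 0.298), with a 95% interval from -0.72 to 0.00, and -0.16 ± 0.18 in WT (edgeR adjusted p = 0.657), with an interval from -0.52 to 0.20.

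Ly9, a self-binding receptor also called CD229 and known on lymphocytes, averaged more in MPP3, and the call depended on the fit. It stood at 47.0, 25.0, 34.4 and 40.2 CPM in Jak2V617F MPP3, at 25.6, 21.0, 41.7 and 46.9 CPM in WT MPP3, at 22.3, 17.7, 5.27 and 26.4 CPM in Jak2V617F HSC, and at 17.4, 12.9, 16 and 22.4 CPM in WT HSC. MPP3 was higher than HSC in 4 of 4 batches in each genotype, although the groups overlapped by their extreme libraries. The log2 difference was 1.03 ± 0.37 in Jak2V617F (edgeR adjusted p = 0.109) and 0.98 ± 0.37 in WT (edgeR adjusted p = 0.0963). Jak2V617F HSC replicate 3 held the lowest level, and with that library left out the adjusted p in WT was 0.0167. DESeq2 gave an adjusted p of 0.0425 in Jak2V617F and 0.0419 in WT, and edgeR gave 0.0454 in Jak2V617F without Jak2V617F HSC replicates 1 and 4 and 0.0414 in WT with the groups compared alone. Ly9 overlaps Cd244a on the opposite strand, but the exons of the genes share no base.

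Slamf6, a self-binding receptor of T, B and NK cells also called Ly108 in the mouse, was a low transcript of MPP3. It stood at 0.345, 3.13, 1.43 and 0.869 CPM in Jak2V617F MPP3, at 1.48, 5.67, 4.99 and 2.99 CPM in WT MPP3, at 0.0237, 0.449, 0.959 and 0.195 CPM in Jak2V617F HSC, and at 0.0555, 0, 0.937 and 0 CPM in WT HSC. All WT MPP3 libraries lay above all WT HSC libraries, while the Jak2V617F groups overlapped. The log2 difference of MPP3 from HSC was 1.82 ± 1.26 in Jak2V617F (edgeR adjusted p = 0.479) and 3.91 ± 1.36 in WT (edgeR adjusted p = 0.0679). In WT it passed with the batch as a block (edgeR adjusted p = 0.0165), in DESeq2 (adjusted p = 0.00814), in limma-voom (adjusted p = 0.00927) and without WT HSC replicate 3, which held 36 counts where the other 3 libraries held 2, 0 and 0 (edgeR adjusted p = 0.00387). Slamf6 reached the filter's level of 0.264 CPM in 8 of 8 MPP3 libraries and 3 of 8 HSC libraries, under the 4 libraries needed, so it was tested through its MPP3 level alone and no call is read from these values.

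Slamf7, the CRACC receptor of NK and plasma cells, had counts in MPP3 libraries alone. It stood at 1.12, 0, 2.28 and 0.971 CPM in Jak2V617F MPP3 and at 0.897, 1.53, 0.0531 and 4.76 CPM in WT MPP3, and had no count in any of the 8 HSC libraries. A floor of 3 counts per library corresponds to at most 0.0842 CPM in Jak2V617F HSC and 0.0832 CPM in WT HSC. Against that floor, mean Slamf7 was at least 13-fold higher in Jak2V617F MPP3 and at least 21.7-fold higher in WT MPP3. Since it passed the filter on low counts through 6 of 8 MPP3 libraries and no HSC library, a difference between the cell types was built into its selection, and no test of it is given. Among the MPP3 libraries, 1 of Jak2V617F had no count and 1 of WT had 2 counts.

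Slamf8 and Slamf9 encode short-tailed receptors that lack the switch motifs and are known from macrophages and other myeloid cells. Slamf8 stood at 0.201, 0.447, 2.48 and 1.33 CPM in Jak2V617F MPP3, at 1.36, 0.751, 0.876 and 1.03 CPM in WT MPP3, at 2.51, 2.36, 4.21 and 4.48 CPM in Jak2V617F HSC, and at 2.05, 2.51, 14.2 and 10.7 CPM in WT HSC. All WT HSC libraries lay above all WT MPP3 libraries, and replicates 3 and 4 of WT HSC were the highest of all 16. Slamf8 fell in MPP3 against HSC in WT, with a log2 difference of -2.87 ± 0.74 (edgeR adjusted p = 0.0153; 0.0596 without WT HSC replicate 3, and 0.0550 in limma-voom). In Jak2V617F the difference was -1.60 ± 0.71 (edgeR adjusted p = 0.207), with the groups overlapping. Slamf9 was at 0 in 7 of 16 libraries and at most 1.86 CPM in the others, and it too passed the filter through MPP3 libraries alone (6 of 8, against 2 of 8 HSC libraries). Its log2 difference of MPP3 from HSC was 2.03 ± 1.88 in Jak2V617F (edgeR adjusted p = 0.639) and 2.30 ± 1.91 in WT (edgeR adjusted p = 0.508). As for Slamf6, nothing is read from these values.

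**Figure D2:**
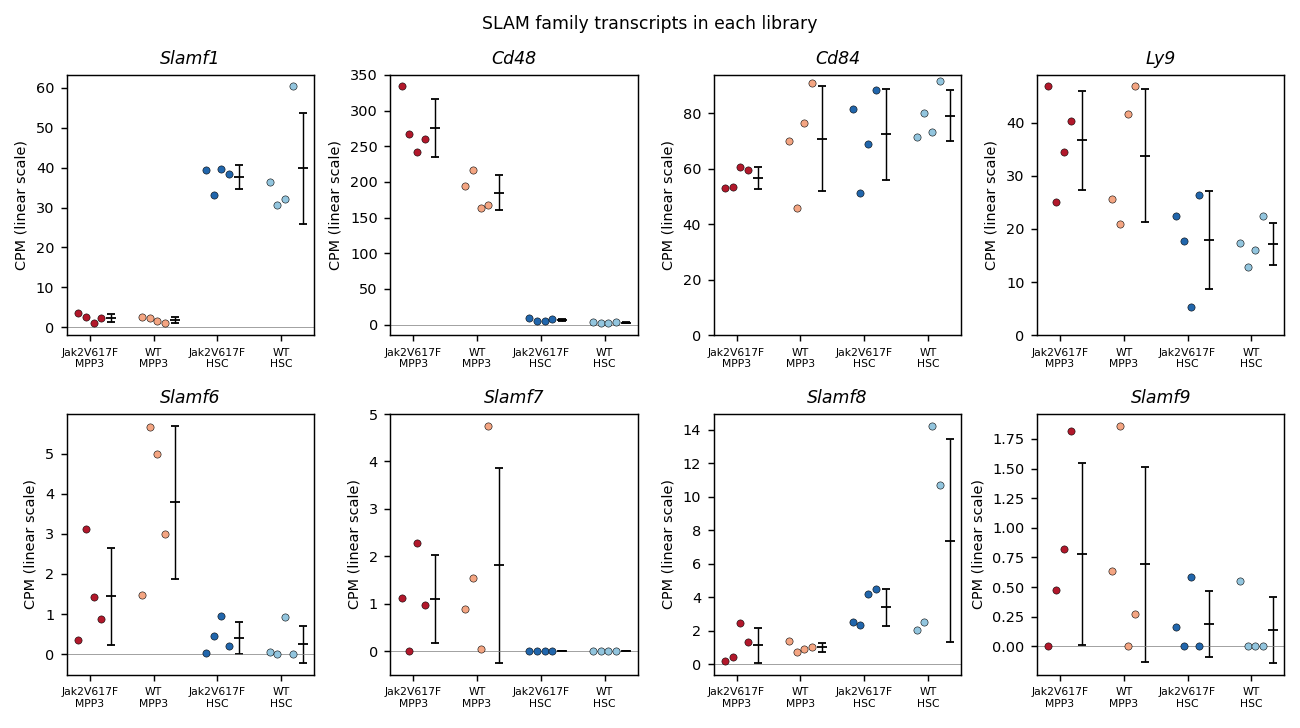
CPM of the 8 SLAM members in every library on linear axes, with one point per library (replicates 1 to 4 from left to right) and a bar for the mean ± SD of each group of 4. Cd48 is at 163 to 334 CPM in the MPP3 libraries and at 1.74 to 8.67 CPM in the HSC libraries, Slamf1 shows the reverse, and Slamf7 is at 0 in all 8 HSC libraries.

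Besides Slamf1 and Cd48, the 3 members that did not pass the filter through MPP3 alone were Cd84, Ly9 and Slamf8. Of these, 0 were called by edgeR in Jak2V617F and 1 was called in WT (Slamf8, lower in MPP3). Ly9 and Slamf8 had an unadjusted edgeR p under 0.05 in both genotypes. It was 0.0135 for Ly9 and 0.0370 for Slamf8 in Jak2V617F, and 0.0182 for Ly9 and 0.00118 for Slamf8 in WT. Of all 14179 genes, 2886 were under 0.05 in Jak2V617F and 3751 in WT. DESeq2 called Ly9 in Jak2V617F, and Ly9 and Slamf8 in WT. Among all 14179 genes, 8.36% were called in either direction between MPP3 and HSC in Jak2V617F (3.69% higher in MPP3) and 13.6% in WT (6.67% higher and 6.91% lower in MPP3). The groups did not overlap for 1 of the 3 in WT (Slamf8) and overlapped for all 3 in Jak2V617F, beside no overlap in 13.8% of all genes in Jak2V617F and in 19.5% in WT.

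Levels of lymphocyte and macrophage markers are given beside the low SLAM transcripts. The summed level of 8 T cell markers was 1.76 to 3.79 CPM in Jak2V617F MPP3 and 0.219 to 0.898 CPM in Jak2V617F HSC, and 4.80 to 9.84 CPM in WT MPP3 and 0.300 to 1.14 CPM in WT HSC. In Jak2V617F MPP3, 2 of 5 tested T cell markers, 1 of 4 tested NK markers and 4 of 7 tested B and plasma cell markers were called higher than in Jak2V617F HSC. Among all genes, 3.69% were called higher there. In WT MPP3, 2 of 5 tested T cell markers, 1 of 4 tested NK markers and 5 of 7 tested B and plasma cell markers were called higher than in WT HSC. Among all genes, 6.67% were called higher in that comparison. At 0 in all libraries of Jak2V617F HSC were 2 of 8 T cell, 5 of 7 NK and 3 of 8 B and plasma cell markers. In WT HSC the same held for 4 of 8, 6 of 7 and 3 of 8. Which of the tested markers passed the filter on low counts through MPP3 libraries alone was not counted, so no result is read from their calls. Cd3e, Trac and the NK marker Eomes were at 0 in all WT MPP3 libraries. The summed 7 NK markers were 1.05 to 4.66 CPM in Jak2V617F MPP3 and 1.12 to 10.4 CPM in Jak2V617F HSC. They were 3.96 to 15.8 CPM in WT MPP3 and 9.34 to 16.5 CPM in WT HSC. The summed 8 B and plasma cell markers were 70.8 to 117 CPM in Jak2V617F MPP3 and 53.4 to 67.3 CPM in Jak2V617F HSC. They were 114 to 294 CPM in WT MPP3 and 72.8 to 94.3 CPM in WT HSC. The part of these lymphocyte markers in the levels of Slamf6, Slamf7 and Ly9 was not tested. The summed 10 macrophage and dendritic markers, beside Slamf8, were 4.77 to 9.22 CPM in Jak2V617F MPP3, 8.70 to 13.9 CPM in WT MPP3, 2.19 to 5.57 CPM in Jak2V617F HSC and 7.03 to 12.6 CPM in WT HSC, where Siglech, Cd209a, Marco and Itgax were at 0, and their part in its level was not tested.

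Per length, in TPM (the authors' values, scaled to gene length and a common library total), the make-up of the family changed between the cell types. Shares are of the summed TPM of the 8 members, without Cd244a. Cd244a averaged 21.9 TPM in Jak2V617F MPP3, 18.1 TPM in WT MPP3, 1.55 TPM in Jak2V617F HSC and 1.01 TPM in WT HSC. Cd48 held 85.9% ± 2.29 of that sum in Jak2V617F MPP3, 77.7% ± 6.19 in WT MPP3, 10.2% ± 1.28 in Jak2V617F HSC and 3.93% ± 1.07 in WT HSC (SD, n = 4 each). In HSC the leading member was Cd84, with 54.3% ± 2.38 in Jak2V617F HSC and 55.9% ± 7.65 in WT HSC, against 8.50% ± 1.66 in Jak2V617F MPP3 and 14.2% ± 4.35 in WT MPP3. Slamf1, although the member that names the HSC phenotype, held 22.1% ± 2.60 in Jak2V617F HSC and 23.3% ± 4.72 in WT HSC, behind Cd84 in every HSC library. By mean TPM among all gene rows Cd48 ranked 461 in Jak2V617F MPP3, 638 in WT MPP3, 7356 in Jak2V617F HSC and 10042 in WT HSC.

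The summed level followed Cd48. The total of the 8 members, which leaves out Cd244a, was 395 ± 36.6 TPM in Jak2V617F MPP3 and 303 ± 16 TPM in WT MPP3. It was 87.2 ± 17.2 TPM in Jak2V617F HSC and 84.4 ± 14.8 TPM in WT HSC. Cd84 by contrast averaged 33.2 TPM in Jak2V617F MPP3, 43.2 TPM in WT MPP3, 47.4 TPM in Jak2V617F HSC and 46.5 TPM in WT HSC.

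**Figure D3:**
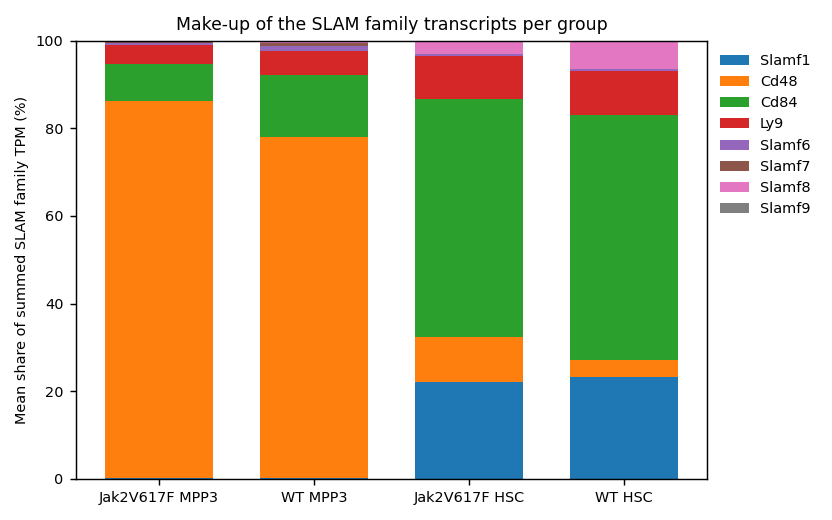
Mean share of each SLAM member in the summed TPM of the 8 members, in percent, as one stacked bar for each group of 4 libraries. Cd48 fills 85.9% of the Jak2V617F MPP3 bar and 77.7% of the WT MPP3 bar, and Cd84 fills 54.3% of the Jak2V617F HSC bar and 55.9% of the WT HSC bar.

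The comparison of Jak2V617F with WT asks what the mutation changes within a sorted cell type. In HSC, Cd48 rose with the mutation and was the only one of the 8 members called. Its log2 fold change was 1.43 ± 0.21, or 2.69-fold (edgeR adjusted p = 0.000763), resting on 175 to 366 counts per Jak2V617F HSC library and 67 to 128 per WT HSC library. Within batches 1 to 4 the log2 differences were 1.45, 1.32, 1.70 and 1.23, and the groups did not overlap. Over all genes, 7.30% were called in either direction in this comparison and 4.56% were called higher, and the groups did not overlap in 14.8%. Jak2V617F HSC replicates 1 and 4, whose profiles were the most alike, had the highest Cd48 levels, and without them the log2 fold change was 1.09 (edgeR adjusted p = 0.0262).

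The other 7 members were not called in HSC. Slamf1 differed by -0.08 ± 0.32 (edgeR adjusted p = 0.928, 95% interval -0.70 to 0.54), Cd84 by -0.13 ± 0.18 (edgeR adjusted p = 0.775, interval -0.49 to 0.23) and Ly9 by 0.06 ± 0.37 (edgeR adjusted p = 0.956, interval -0.66 to 0.79) on the log2 scale. For the low members the intervals were wide: Slamf8 differed by -1.12 ± 0.69 (edgeR adjusted p = 0.378), Slamf6 by 0.70 ± 1.25 (edgeR adjusted p = 0.83) and Slamf9 by 0.44 ± 1.85 (edgeR adjusted p = 0.937), and Slamf7 had no counts. The number of Slamf1 counts per Cd48 count was 4.55 to 6.85 in Jak2V617F HSC libraries and 11.6 to 18.9 in WT HSC libraries, with no overlap.

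Marker levels of neighbouring cell types stood as follows beside the Cd48 rise. The summed 10 markers of MPP3 and granulocyte-monocyte progenitors were 183 to 352 CPM in Jak2V617F HSC and 350 to 419 CPM in WT HSC, against at least 2385 CPM in every MPP3 library, and 0 of the 10 were called higher in Jak2V617F HSC. Mpo, the myeloperoxidase that defines early myeloid cells, averaged 5.36 ± 7.69 CPM in Jak2V617F HSC and 9.33 ± 6.29 CPM in WT HSC. The summed 10 HSC markers were 1928 to 2070 CPM in Jak2V617F HSC and 3317 to 3411 CPM in WT HSC, and 5 of the 10 were called lower. The summed 7 megakaryocyte and platelet markers were 836 to 1258 CPM in Jak2V617F HSC and 568 to 787 CPM in WT HSC. Of the 6 tested, 2 were called higher, beside 4.56% of all genes called higher and 7.30% in either direction. The part of these differences in the Cd48 level was not tested, and whether the sort set a limit on CD48 protein was not tested either.

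In MPP3 no member was called between the genotypes, where 9 of 14179 genes, or 0.0635%, were called in all. One member, Cd48, had an unadjusted p under 0.05. The Cd48 libraries did not overlap, with 242 to 334 CPM in Jak2V617F MPP3 and 163 to 216 CPM in WT MPP3, as was the case for 7.13% of all genes in this comparison. The log2 fold change of Cd48 was 0.57 ± 0.19 (edgeR adjusted p = 0.184; 0.10 with the batch as a block), and it was positive in 4 of 4 batches, at 0.79, 0.31, 0.57 and 0.63. Slamf6 was lower in 4 of 4 batches, with a log2 fold change of -1.39 ± 1.23 that missed the threshold (edgeR adjusted p = 0.688). The T cell markers, whose part was not tested, summed to 1.76 to 3.79 CPM in Jak2V617F MPP3 and 4.80 to 9.84 CPM in WT MPP3. Cd84 differed by -0.33 ± 0.18 (edgeR adjusted p = 0.464), Slamf1 by 0.38 ± 0.34 (edgeR adjusted p = 0.700), Slamf7 by -0.73 ± 1.41 (edgeR adjusted p = 0.894), Ly9 by 0.12 ± 0.37 (edgeR adjusted p = 0.942), Slamf8 by 0.15 ± 0.70 (edgeR adjusted p = 0.966) and Slamf9 by 0.17 ± 1.8 (edgeR adjusted p = 0.992).

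The mutant effect on Cd48 was smaller in MPP3 than in HSC by value, but the difference was not called. The log2 effect in MPP3 minus that in HSC was -0.85 ± 0.28, with an unadjusted p of 0.00738 and an edgeR adjusted p of 0.453. No other member had an unadjusted p under 0.05 in that comparison, in which 0.0423% of all genes were called.

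**Figure D4:**
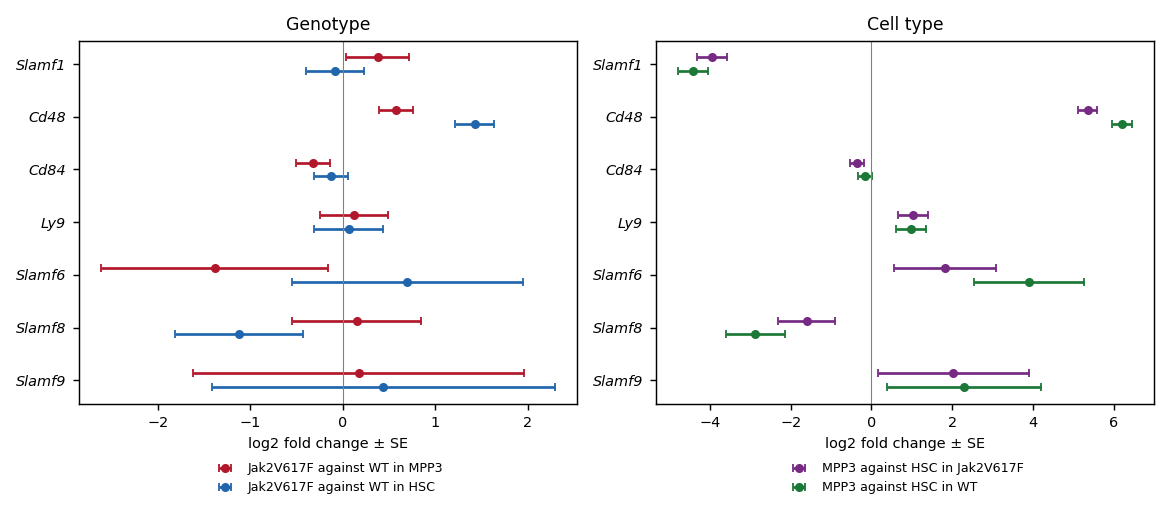
Log2 fold changes ± SE of 7 SLAM members, on the left for Jak2V617F against WT in each cell type and on the right for MPP3 against HSC in each genotype; Slamf7 is left out since it had no counts in HSC. Cd48 in HSC, at 1.43 ± 0.21, is the only genotype difference called, and Slamf1 (-3.95 in Jak2V617F and -4.41 in WT) and Cd48 (5.35 in Jak2V617F and 6.21 in WT) have the largest cell type differences shown, in opposite directions.

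The partners and adaptors of the family were measured as a list of 5 genes, of which 4 were tested. Cd244a, the mouse gene of the CD48 receptor CD244, was higher in MPP3 than in HSC, as was its ligand. It stood at 49.5, 48.9, 49.6 and 54.1 CPM in Jak2V617F MPP3 and at 37.7, 36.6, 36.7 and 47.5 CPM in WT MPP3. In HSC it stood at 4.79, 2.78, 2.02 and 3.58 CPM in Jak2V617F and at 2.55, 2.48, 4.97 and 0.0250 CPM in WT. It was 3.94 ± 0.62 higher on the log2 scale in Jak2V617F MPP3 than in Jak2V617F HSC (edgeR adjusted p = 0.000434) and 3.98 ± 0.62 higher in WT MPP3 than in WT HSC (edgeR adjusted p = 0.000316). Between the genotypes the log2 difference in HSC was 0.40 ± 0.58 (edgeR adjusted p = 0.776) and the one in MPP3 was 0.35 ± 0.54 (edgeR adjusted p = 0.856). The MPP3 libraries of the genotypes did not overlap, as was the case for 7.13% of all genes, whereas the HSC libraries overlapped. Within batches 1 to 4 the log2 differences between the genotypes in MPP3 were 0.39, 0.42, 0.44 and 0.19. The fit shares the spread of a gene over all 16 libraries, so this SE and p also hold the spread between HSC libraries. Cd2, the other CD48 receptor, was at 0 in all HSC libraries and at most 0.810 CPM in MPP3 libraries.

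The adaptor genes were scarcely detected. Sh2d1a reached at most 0.637 CPM, Sh2d1b1 1.85 CPM and Sh2d1b2 0.330 CPM in any library, and Sh2d1b2 was not tested. The main edgeR test called neither Sh2d1a nor Sh2d1b1 in any of the 5 comparisons, but that of Sh2d1b1 depended on the fit. For MPP3 against HSC in Jak2V617F, Sh2d1b1 had an edgeR adjusted p of 0.0719 and a DESeq2 adjusted p of 0.00926. Its edgeR adjusted p was 0.0434 with the groups compared alone, 0.0396 without WT HSC replicate 3 and 0.0327 without Jak2V617F HSC replicate 1. It stood at 0.420 CPM or more in every MPP3 library and at most 0.118 CPM in Jak2V617F HSC. In WT HSC, 2 libraries held at most 3 counts. Sh2d1b1 thus passed the filter on low counts through MPP3 alone, and no call between the cell types is read from these values. For Jak2V617F against WT in HSC it had an edgeR adjusted p of 0.0818, and passed without WT HSC replicate 3 (edgeR adjusted p = 0.0478) or without Jak2V617F HSC replicate 1 (edgeR adjusted p = 0.0497).

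Of 15 genes of downstream signalling, none was called between the genotypes, beside 7.30% of all genes called in HSC and 0.0635% in MPP3. They run from kinases and phosphatases that SLAM receptors engage to Beclin 1 and Vps34, of the complex that SLAMF1 binds in macrophages. At an unadjusted p under 0.05 there were 2 in HSC and 3 in MPP3, beside 3080 in HSC and 1960 in MPP3 of all 14179 genes. DESeq2 called 1 of the 15 in HSC (Plcg2) and 0 in MPP3. The median log2 fold change was 0.00 in HSC and -0.01 in MPP3, beside -0.06 in HSC and -0.02 in MPP3 for all genes.

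Between the cell types, Lck and Prkcq changed in opposite directions. Lck, a Src-family kinase, rose in MPP3, by 0.93 ± 0.21 in Jak2V617F (edgeR adjusted p = 0.00877) and by 1.67 ± 0.21 in WT (edgeR adjusted p = 5.3e-05). Prkcq, the protein kinase C theta that acts downstream of SAP in T cells, fell in MPP3, by 0.82 ± 0.21 in Jak2V617F (edgeR adjusted p = 0.0200) and by 1.01 ± 0.21 in WT (edgeR adjusted p = 0.00391). In Jak2V617F, 3 of 15 rose and 2 fell, beside 8.36% of all genes called (3.69% higher), the others being Plcg1 (0.62 ± 0.17), Grb2 (0.42 ± 0.12) and Fyn (-0.64 ± 0.17), whose calls were lost without Jak2V617F HSC replicates 1 and 4 (edgeR adjusted p = 0.297, 0.268 and 0.176), as was that of Prkcq (edgeR adjusted p = 0.112). Single libraries left out also ended these calls: 4 for Plcg1 (Jak2V617F MPP3 replicates 2 and 3, Jak2V617F HSC replicates 1 and 4), 5 for Fyn (Jak2V617F MPP3 replicates 3 and 4, Jak2V617F HSC replicates 1, 2 and 4), 4 for Prkcq (Jak2V617F MPP3 replicates 1, 2 and 4, Jak2V617F HSC replicate 2) and 13 for Grb2 (all but WT MPP3 replicate 4 and WT HSC replicates 3 and 4), with edgeR adjusted p from 0.0521 to 0.139. In WT, 1 rose and 1 fell, beside 13.6% of all genes called. Inpp5d, the SHIP-1 phosphatase, stood at 0.44 ± 0.15 in WT (edgeR adjusted p = 0.0583), and passed with the batch as a block (edgeR adjusted p = 0.00877), in DESeq2 (adjusted p = 0.0243), in limma-voom (adjusted p = 0.0483), with effective-length offsets (edgeR adjusted p = 0.0219) and with the groups compared alone (edgeR adjusted p = 0.0441). The median of the 15 was 0.21 in Jak2V617F and 0.10 in WT.

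Among 11 other markers used to sort stem and progenitor cells, 2 were called higher and 1 lower in Jak2V617F HSC against WT HSC, beside 7.30% of all genes called (4.56% higher). Cd9, a tetraspanin, rose by 0.45 ± 0.10 (edgeR adjusted p = 0.0117). Itga2b, which encodes the integrin CD41, was 0.58 ± 0.17 higher (edgeR adjusted p = 0.0485; 0.0699 with the batch as a block), a call lost with any 1 of 8 libraries left out, namely any WT HSC library, Jak2V617F HSC replicate 1 or 2, or WT MPP3 replicate 3 or 4 (edgeR adjusted p from 0.0517 to 0.127). Procr, the protein C receptor EPCR, fell by 1.08 ± 0.22 (edgeR adjusted p = 0.00742; 0.154 without Jak2V617F HSC replicates 1 and 4). Kit, the stem cell factor receptor, stood at -0.37 ± 0.12 in HSC (edgeR adjusted p = 0.0835), and passed with the batch as a block (edgeR adjusted p = 0.0183) and in DESeq2 (adjusted p = 0.0371). In MPP3 0 of the 11 were called by edgeR, beside 0.0635% of all genes. There were 4 at an unadjusted p under 0.05, and 2 were called by DESeq2 (Cd9, adjusted p = 0.00717, and Esam, adjusted p = 0.0338). With the batch as a block Cd9 also passed in MPP3 (edgeR adjusted p = 0.0264). Since these genes, like Slamf1 and Cd48, may have set the gates, their MPP3 against HSC differences are not read here.

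The genes whose log2 CPM was most like that of each sort marker over the 16 libraries, taken from 9743 genes averaging 5 CPM or more, were as follows. For Slamf1 they were Cavin2 (Pearson r = 0.974), Sfrp1 (0.970), Bex1 (0.965), Hmgn3 (0.964) and Dusp3 (0.963). Cavin2 averaged 0.0192 CPM in Jak2V617F MPP3, 0.00663 CPM in WT MPP3, 96.0 CPM in Jak2V617F HSC and 92.8 CPM in WT HSC. For Cd48 they were H2afy (0.997), Cd52 (0.983), Itgal (0.979), Serpinb1a (0.979) and Lat2 (0.978). H2afy averaged 903 ± 85.1 CPM in Jak2V617F MPP3, 811 ± 54.6 CPM in WT MPP3, 321 ± 16.4 CPM in Jak2V617F HSC and 242 ± 20.8 CPM in WT HSC, the same order of groups as Cd48. The libraries form 2 clusters by cell type and share batches, so these r values are a description of likeness, with no p.

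All 8 members lie on chromosome 1 (GRCm38, GENCODE release M21). A run of 6, from Ly9 to Slamf6, spans 364.547 kb from 171588624 to 171953170, and Slamf9 (172475358 to 172478575, plus strand) and Slamf8 (172581758 to 172590568, minus strand) lie farther along. In the order of the chromosome the run holds Ly9 (171588624 to 171607410) and Slamf7 (171632403 to 171653035) on the minus strand, then Cd48 (171682009 to 171705258), Slamf1 (171767127 to 171801184), Cd84 (171839697 to 171890718) and Slamf6 (171917515 to 171953170) on the plus strand. The other 2 protein-coding genes of the span are Cd244a (171559193 to 171609746, plus strand) and Gm10521, which stood at a mean of at most 0.224 CPM in any group. Levels of neighbours differed: Cd48 and Slamf1 are neighbours and had opposite differences between MPP3 and HSC, and Cd84, next to Slamf1, had none that was called.

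The genes on either side of the run were also read. Vangl2, the nearest protein-coding gene on the Slamf6 side, averaged 19.9 ± 3.35 CPM in Jak2V617F MPP3, 18.3 ± 3.88 CPM in WT MPP3, 20.4 ± 3.19 CPM in Jak2V617F HSC and 18.6 ± 2.82 CPM in WT HSC. Itln1, the nearest on the other side, had no counts.

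**Figure D5:**
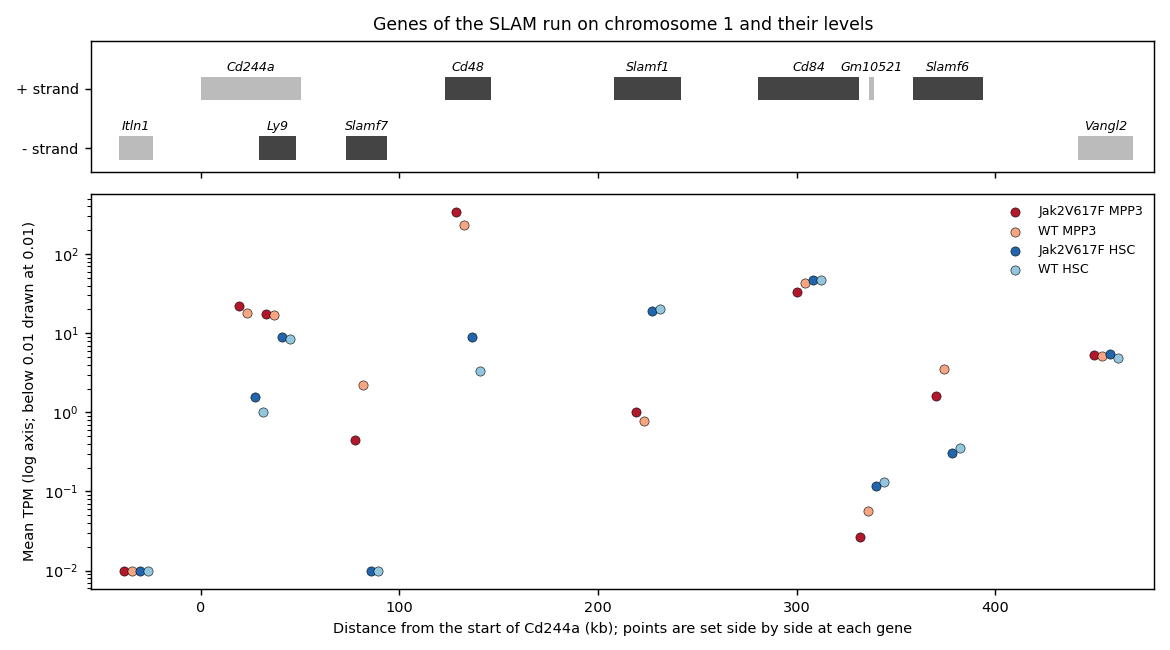
Protein-coding genes of the SLAM run by distance from the start of Cd244a in kb (top, dark for members, grey for other genes, by strand) and their mean TPM in each group of 4 libraries on a log axis (bottom, means below 0.01 drawn at 0.01). Cd48 means reach 340 TPM in Jak2V617F MPP3, while the neighbouring Slamf1 is highest in WT HSC at 20.1 TPM and Vangl2, outside the run, lies near 5 TPM in all groups.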

How the data were processed

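RNA-seq of 16 libraries was analysed. Per the submitters' processing notes, Salmon, HISAT2, FastQC and cutadapt 4.0 were used, on genome build GRCm38 (mm10); no source here gives their settings or the strand protocol. The authors' deposited Salmon gene tables hold estimated counts (expected counts per gene, not normalized), TPM (per effective length and per library), and effective gene lengths in bases. Each table had 31716 rows, of which 29806 were gene rows; the 1910 rows of single transcripts held at most 0.796% of a library's counts and were left out, and none belonged to a member.

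Estimated counts were rounded to whole numbers and tested with edgeR 4.0.16 in R 4.3.3 (glmQLFit, robust, and glmQLFTest), with TMM normalization and filterByExpr by group, in 1 model of 4 groups over all 16 libraries, with Benjamini-Hochberg adjustment over 14179 genes. The fit was tested on simulated data. Log2 CPM used a prior count of 2, SE came from dividing the log2 fold change by the root of F, and a 95% interval is 1.96 SE either way. The 5 comparisons were Jak2V617F against WT in each cell type, MPP3 against HSC in each genotype, and the difference of the Jak2V617F effect. Named genes were all members and adaptors, up to 4 genes with the smallest adjusted p of each other list, the 5 most like Slamf1 and Cd48, and the genes of the locus. Members and lists were chosen with earlier results of these data known.

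The labels give the replicate number as the batch too, so it pairs libraries. In 24 same-number comparisons of deviations from group means, r lay between -0.03 and 0.16, and the own number was the best match in 17. For MPP3 with HSC of the same genotype the own number was always the best match. There r was 0.08 to 0.14 in WT and 0.08 to 0.16 in Jak2V617F. The main fit did not use the number as a block. Alternatives were that block, DESeq2 1.42.0, limma-voom (limma 3.58.1), RLE size factors, no filter, effective-length offsets, transcript rows added, the groups compared alone, and libraries left out. The deposited estimated counts of low members are few, and a count of 0 allows up to 3 counts per library, for counting error only. No protein table was used, so protein features are not analysed here.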

Additional observations from a re-analysis of the deposited data

Results flagged for a closer look

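In 8 of 46 groups of 4 libraries, over the members and their adaptors and partners, 1 library stood apart from the other 3 by more than Dixon's 95% critical value; chance gives this in about 1 of 20 groups, and 6 of the 8 have 3 libraries at or near 0. Slamf6 was at 0.937 CPM in WT HSC replicate 3 (36 counts), against 2, 0 and 0 counts in the other WT HSC libraries. Slamf9 was at 0.555 CPM in WT HSC replicate 1 (20 counts), with no count in the other 3. Sh2d1a was at 0.279 CPM in Jak2V617F MPP3 replicate 2 (10 counts) and at 0.0260 CPM in WT HSC replicate 3 (1 count), with no count in the others of each group. Sh2d1b1 was at 0.118 CPM in Jak2V617F HSC replicate 1 (5 counts) and Sh2d1b2 at 0.0277 CPM in WT HSC replicate 1 (1 count), with no count in the others. Cd244a was highest in replicate 4 of Jak2V617F MPP3, at 54.1 CPM against 48.9 to 49.6 CPM, and in replicate 4 of WT MPP3, at 47.5 CPM against 36.6 to 37.7 CPM; both libraries belong to batch 4.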

How the results depend on the processing

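Over 25 alternatives, Cd48 in Jak2V617F against WT HSC was called in each, with log2 fold changes from 1.09 to 1.59 and edgeR, DESeq2 or limma-voom adjusted p from 6.31e-10 to 0.0439. Cd48 in MPP3 was called in none, with adjusted p from 0.0613 to 0.412, and the difference of its Jak2V617F effect between the cell types in none of 24, with adjusted p from 0.148 to 0.896. Of 987 values of single members under alternatives, 961 were unchanged, 17 lost a call, 9 gained one and 0 reversed. Unchanged meant staying on the same side of the threshold. For Slamf1 and Cd48 in MPP3 against HSC, which were not tested, it meant the same direction and a shift below the larger group SD of log2 CPM. The other named genes were run through the same alternatives after the data were seen. Slamf6, Slamf7 and Slamf9 passed the filter through MPP3 alone, so no result is read from counts that hold them. Counting them, members called between MPP3 and HSC other than Slamf1 and Cd48 numbered 1 in Jak2V617F (Slamf7). Of all genes, 8.36% were called there. The count was 2 with DESeq2 (Ly9 and Slamf7) and 0 to 1 with a library left out. It was 0 with the replicate block, limma-voom, effective-length offsets or the groups compared alone. In WT such members numbered 2 (Slamf7 and Slamf8), where 13.6% of all genes were called. The WT count was 4 with DESeq2, 1 with limma-voom (Slamf6, with Slamf7 and Slamf8 lost) and 2 to 3 with a library left out. All genes called in Jak2V617F against WT HSC numbered 1035, against 1668 with DESeq2, 266 without Jak2V617F HSC replicates 1 and 4, and 605 to 1412 with 1 library left out. In MPP3 they numbered 9, against 82 with the replicate block, 386 with DESeq2, 1 with no filter, 16 with effective-length offsets, 1 without Jak2V617F HSC replicates 1 and 4, 0 with the groups compared alone, and 1 to 209 with 1 library left out (209 without Jak2V617F MPP3 replicate 3). For the difference they numbered 6, against 1 with the block, 78 with DESeq2, 0 without Jak2V617F HSC replicates 1 and 4, and 1 to 5 with 1 library left out. For MPP3 against HSC in Jak2V617F they numbered 1186, against 776 without those replicates. The block changed no other member's call than those of Slamf6 and Slamf7. The causes were not tested. Slamf6, Slamf7, Slamf8 and Slamf9 rest on few counts, and a difference between the genotypes smaller than their intervals was not detectable at this depth.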
